A study of Homo sapiens with 62 samples.

Results

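10 genes outside the long arm of chromosome 1 (1q) were followed across clones of cancer and breast epithelial cell lines that lost an extra copy of 1q. They are HMGN5, INPP5D, GLIPR2, CCDC69, SEMA7A, TSPAN9, KBTBD8, PINK1, PSTPIP2 and ACO1. They are 10 of the 58735 genes listed in the count tables of A2058, AGS, HCT116 and MCF10A, and of the 48162 listed for A2780. The measured values themselves chose them: they were chosen by their fold changes and adjusted p-values in the 5 comparisons of 1q-loss clones with their controls. A gene qualified with an adjusted p under 0.05 in 3 or more of the 5, each time with the same sign. Of 19270 genes outside 1q tested in at least 1 of these comparisons, 27 qualified (0.14%), 17 of them higher and 10 lower, and the 10 described are among those 27. Their changes in the 5 comparisons are therefore a description and carry no test here. Only HMGN5 qualified in 4 comparisons. The member nearest the threshold was ACO1, whose third-smallest adjusted p was 0.0491, followed by CCDC69 at 0.0446, while the nearest genes outside stood at 0.0507 and 0.0513. The count of members that qualify depended on the few AGS controls: it was 2 without either AGS TK+ library, 3 without the AGS WT library, and 6 without AGS 1q-loss clone 1 or clone 7.

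The study removed gained chromosome arms from human cell lines with ReDACT, a collection of genome-engineering methods applied in versions that the labels name CO, NS and TR, and sequenced poly-A RNA of the resulting single-cell clones. In A2058, a melanoma line, there were 4 libraries of unedited cells (WT), 4 of 2 1q-loss clones, 6 of 3 7p-loss clones and 4 of 2 8q-loss clones, all clones made with ReDACT-CO. In AGS, a gastric cancer line, there was 1 WT library, 2 libraries of 2 TK+ clones, which carry an integrant named TK+ and keep the 1q gain, and 5 libraries of 5 1q-loss clones, of which clone 11 was made with ReDACT-CO and the others with ReDACT-NS. In A2780, an ovarian cancer line, there were 2 WT, 2 TK+ and 6 1q-loss libraries of 3 ReDACT-NS clones. MCF10A, an untransformed breast epithelial line, had 2 WT libraries and 8 libraries of 4 1q-loss clones, with the same numbers again in cells expressing hRASV12, an activated RAS protein (called MCF10A hRas), and in both sets clone 4 was made with ReDACT-CO and clones 1 to 3 with ReDACT-TR. HCT116, a colorectal cancer line, had 2 WT libraries and 4 of 2 8q-loss clones made with ReDACT-CO. Every loss group came from a few single-cell clones, so libraries of 1 clone are not independent of each other, and p-values over libraries measure the spread between these samples, part of which may be technical. The labels do not say whether MCF10A hRas clones 1 to 4 are MCF10A clones 1 to 4 with hRASV12 added, so the 18 1q-loss clones counted here may hold 4 of them in duplicate. The A2780 TK+ libraries carry no clone label and may come from 1 clone. The 7p-loss, 8q-loss and TK+ libraries had been cloned or engineered without removal of 1q, and the members are followed through them below.

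The 10 genes belong to no single pathway. HMGN5 encodes a nucleosome-binding protein that loosens compact chromatin by opposing linker histone. INPP5D encodes SHIP1, a lipid phosphatase best known from blood cells, which limits signalling through phosphoinositide 3-kinase by removing a phosphate from its product. PSTPIP2 is an F-BAR adaptor protein that shapes membranes and the actin cytoskeleton, and it is best known from macrophages. SEMA7A is a membrane-anchored semaphorin that binds integrin beta-1 and plexin C1, and TSPAN9 is a tetraspanin, a membrane protein that organises receptors at the cell surface. KBTBD8 is a substrate adaptor of the CUL3 ubiquitin ligase. PINK1 is the kinase that accumulates on damaged mitochondria and starts their removal by mitophagy. ACO1 is the cytosolic aconitase that, when it lacks its iron-sulfur cluster, binds iron-responsive elements in messenger RNA. GLIPR2 is a membrane-associated protein that restrains autophagy, and CCDC69 is a coiled-coil protein of the mitotic spindle midzone.

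Members lie on 9 chromosomes in GRCh38. HMGN5 (ENSG00000198157) is at chrX:81113701-81201942, INPP5D (ENSG00000168918) at chr2:233059967-233207903 and GLIPR2 (ENSG00000122694) at chr9:36136536-36163913. CCDC69 (ENSG00000198624) is at chr5:151181052-151224145, SEMA7A (ENSG00000138623) at chr15:74409289-74433958 and TSPAN9 (ENSG00000011105) at chr12:3077355-3286564. KBTBD8 (ENSG00000163376) is at chr3:66998307-67011210, PINK1 (ENSG00000158828) at chr1:20633455-20651511 on the short arm, PSTPIP2 (ENSG00000152229) at chr18:45983536-46072272 and ACO1 (ENSG00000122729) at chr9:32384603-32454769. GLIPR2 and ACO1 share the short arm of chromosome 9. CCDC69 overlaps GM2A on the opposite strand, PINK1 overlaps PINK1-AS, and TSPAN9 contains the processed pseudogene AC005912.1. Whether counting used the strand is not given in the sources used here, so reads of these overlapping pairs cannot be told apart with certainty.

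Upstream sequences are shown for 4 members that moved in different ways: HMGN5, the gene that was lower in the 1q-loss clones, and SEMA7A, PSTPIP2 and ACO1, which were higher. They are RefSeq promoter windows on GRCh38.p14, written 5′ to 3′ on the strand of the gene, cut to the bases outside the annotated gene, with matches to the GC box (GGGCGG on either strand) in capitals. HMGN5 is shown for chrX:81201943-81202163 on the minus strand, SEMA7A for chr15:74433959-74434208 on the minus strand, PSTPIP2 for chr18:46072273-46072510 on the minus strand and ACO1 for chr9:32384393-32384602 on the plus strand.
HMGN5: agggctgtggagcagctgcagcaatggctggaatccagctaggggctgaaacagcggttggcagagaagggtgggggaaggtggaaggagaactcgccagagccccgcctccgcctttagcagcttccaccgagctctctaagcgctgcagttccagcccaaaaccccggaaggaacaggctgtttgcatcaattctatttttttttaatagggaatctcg
SEMA7A: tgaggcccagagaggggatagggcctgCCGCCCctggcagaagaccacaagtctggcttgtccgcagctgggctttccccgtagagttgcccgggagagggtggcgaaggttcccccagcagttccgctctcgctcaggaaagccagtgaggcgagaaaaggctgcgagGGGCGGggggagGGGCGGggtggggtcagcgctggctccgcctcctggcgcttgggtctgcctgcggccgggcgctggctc
PSTPIP2: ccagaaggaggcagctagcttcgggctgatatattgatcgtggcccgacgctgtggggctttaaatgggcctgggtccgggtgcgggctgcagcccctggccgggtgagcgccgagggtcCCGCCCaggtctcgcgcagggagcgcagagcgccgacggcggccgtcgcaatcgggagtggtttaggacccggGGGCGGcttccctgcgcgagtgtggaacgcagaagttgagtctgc
ACO1: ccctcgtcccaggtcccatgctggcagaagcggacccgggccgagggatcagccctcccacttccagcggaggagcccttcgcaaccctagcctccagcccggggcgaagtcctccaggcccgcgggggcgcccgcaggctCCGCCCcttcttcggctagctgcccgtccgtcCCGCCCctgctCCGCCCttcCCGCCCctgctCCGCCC
The reference table held 9 windows for 7 members (HMGN5, INPP5D, GLIPR2, CCDC69, SEMA7A, PSTPIP2 and ACO1). In the 250 bases before the start site, the GC box was in 6 of the 9 windows, those of CCDC69, PSTPIP2 and ACO1, both of SEMA7A and 1 of the 2 of GLIPR2, against 42.6% of 35116 windows of the same length. The other window of GLIPR2 and those of HMGN5 and INPP5D held none. No window of a member held CACGTG (E-box), TGACGTCA (CRE), TGANTCA (AP-1), CCAAT or TATAAA on either strand, which 6.34%, 1.65%, 6.57%, 32% and 10.7% of all windows hold. The number of CG dinucleotides was 10 in HMGN5, 9 in INPP5D, 13 in CCDC69, 28 in PSTPIP2 and ACO1, 30 and 33 in the windows of GLIPR2 and 17 and 38 in those of SEMA7A, with a median of 11 over all windows.

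The 62 libraries held 15042068 to 30984036 counts each. Levels are given as CPM (counts of a gene divided by the library total and put on a common scale) scaled by TMM within a line, and changes as log2 fold changes with their standard error (SE). Markers of the labelled tissues were checked: all 6 melanoma markers reached 1 CPM in A2058 and all 6 breast epithelial markers in MCF10A, while VIL1 and CDH17 in HCT116, CLDN18 in AGS, and PAX8 and WT1 in A2780 stayed under 1 CPM in every library. The summed melanoma markers ran from 46.5 to 143.6 CPM in the A2058 1q-loss libraries and from 998.8 to 2988 CPM in the 7p-loss, 8q-loss and WT libraries, and the part of this difference in the A2058 values below was not tested. The summed breast epithelial markers ran from 935 to 8191 CPM in MCF10A hRas 1q-loss against 5606 to 5849 CPM in hRas WT, with TP63 between 0.513 and 76.4 CPM over all MCF10A libraries, and the part of this spread in the MCF10A hRas values was not tested. The summed gastric markers in AGS were at 5897 to 7892 CPM in 1q-loss, above all controls, which held 3864 to 5316 CPM in TK+ and 4623 CPM in WT, and the part of this difference in the AGS values was not tested. Of 12 blood cell markers, 6 stayed under 1 CPM in every library, PTPRC, SPI1, CD2, CD3E, MS4A1 and HBB.

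**Figure D1:**
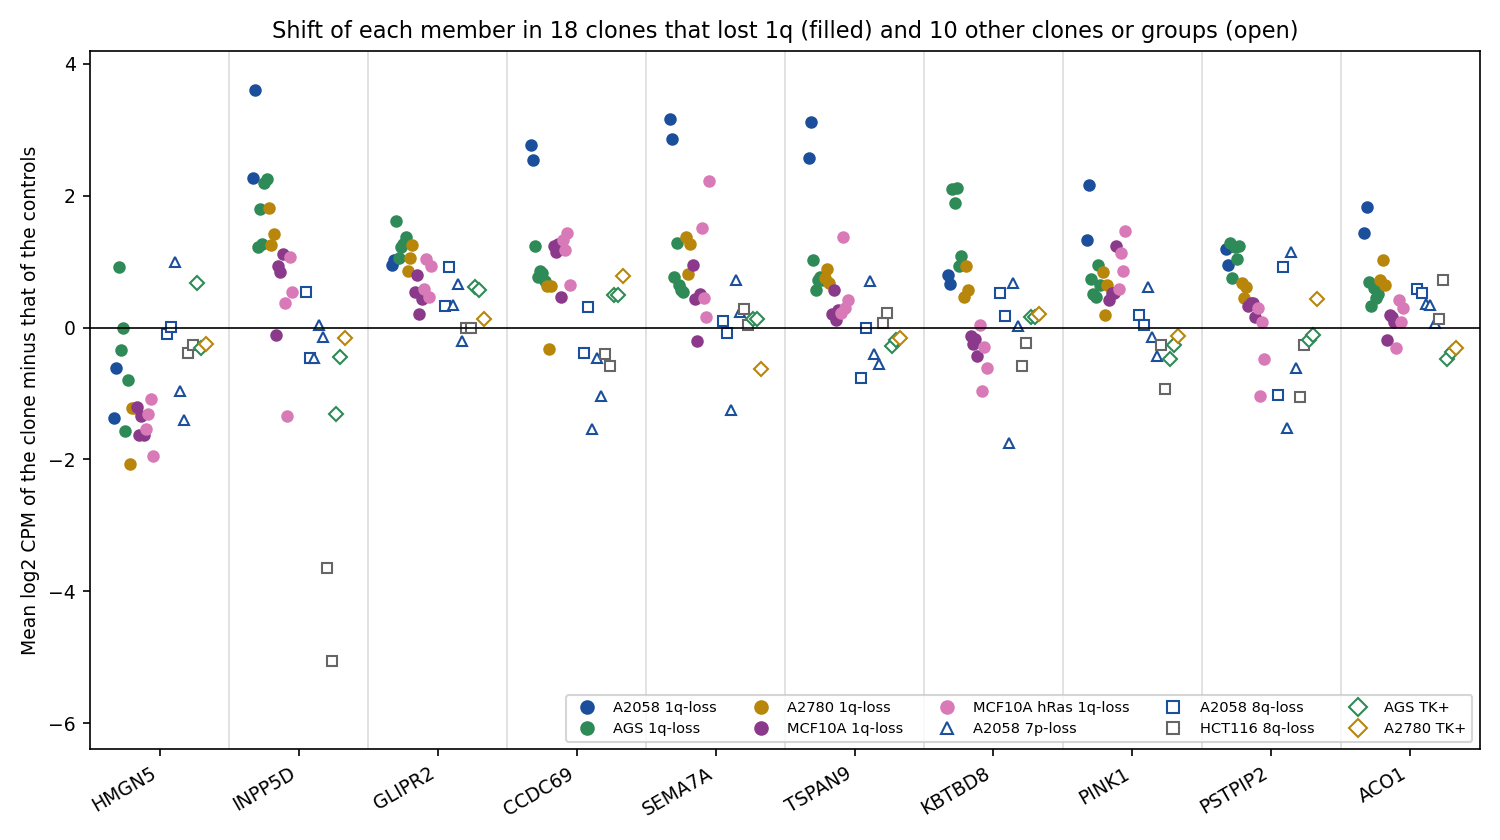
Shift of each member, as the mean log2 CPM of a clone minus that of its controls (y axis), for 18 1q-loss clones (filled circles) and 10 clones or groups without 1q loss (open symbols, TK+ of A2780 as 1 group); colours give the line. HMGN5 lay below 0 in 17 of the 18 1q-loss clones, GLIPR2, TSPAN9 and PINK1 above 0 in all 18, and the open symbols lay on both sides of 0.

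HMGN5 was lower in 1q-loss clones of A2058, A2780, MCF10A and MCF10A hRas, and it was also low in 2 of the 3 A2058 clones that had lost 7p instead. In MCF10A the WT libraries held 11.3 and 10.9 CPM, and the 8 1q-loss libraries ran from 3.49 to 5.40 CPM, with a median of 3.87. In MCF10A hRas the WT libraries held 9.96 and 10.1 CPM and the 1q-loss libraries 2.43 to 4.95 CPM. No 1q-loss library of either set reached the level of a control library. In A2780 the WT libraries held 11.2 and 12.5 CPM, the TK+ libraries 12.8 and 7.70 CPM, and the 1q-loss clones 2.49 and 2.52 (clone 2), 4.84 and 4.39 (clone 5) and 4.99 and 4.21 CPM (clone 6). In A2058 the WT libraries held 6.19, 4.91, 6.09 and 7.44 CPM and the 1q-loss libraries 3.29, 1.60, 4.01 and 3.89 CPM. The log2 fold changes were -1.46 ± 0.18 (SE) in MCF10A, -1.45 ± 0.24 in MCF10A hRas, -1.50 ± 0.23 in A2780 and -0.94 ± 0.27 in A2058. The A2058 call was lost with the replicate number as a block (adjusted p = 0.0523, edgeR). AGS differed, with 3.10 CPM in WT, 5.03 and 2.49 CPM in TK+ and 6.53, 3.37, 1.06, 1.91 and 2.66 CPM in 1q-loss clones 1, 4, 6, 7 and 11. There the 1q-loss clones lay on both sides of the controls and the log2 fold change was -0.18 ± 0.51. Over all 18 1q-loss clones, the shift of HMGN5 ran from -2.07 to 0.92 with a median of -1.27. In MCF10A hRas the call of HMGN5 was lost in 17 of 21 alternatives, with log2 fold changes between -1.59 and -1.31. Without WT replicate 1 or 2 of that set the adjusted p was 0.548 and 0.878 by edgeR.

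HMGN5 separated the 7p-loss clones of A2058 from each other. Clone 1 held 11.8 and 12.7 CPM, clone 2 held 3.40 and 2.82 CPM and clone 3 held 2.46 and 2.04 CPM. Clone 1 thus lay above every WT library of A2058, and clones 2 and 3 below every one, within the range of the 1q-loss libraries. The 3 clones differed by up to 2.44 on the log2 scale (adjusted p = 0.00082, edgeR quasi-likelihood test), and their group against WT showed -0.07 ± 0.54 (adjusted p = 0.97). The fit without clone 1 gave a log2 fold change of -1.19 against WT. Leaving out the highest clone sets that direction, so no test is read from it. HMGN5 was not called without clone 2 or without clone 3. The 8q-loss clones of A2058, at 7.77 and 4.13 CPM and at 7.13 and 5.28 CPM, overlapped WT (log2 fold change -0.02 ± 0.22, adjusted p = 0.983). Only 4 tested genes lay within 2 Mb of HMGN5, and their median shift in 7p-loss clones 1, 2 and 3 was 0.48, 0.00 and 0.11, while the median of all tested genes of its arm was 0.05, -0.04 and -0.02.

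**Figure D2:**
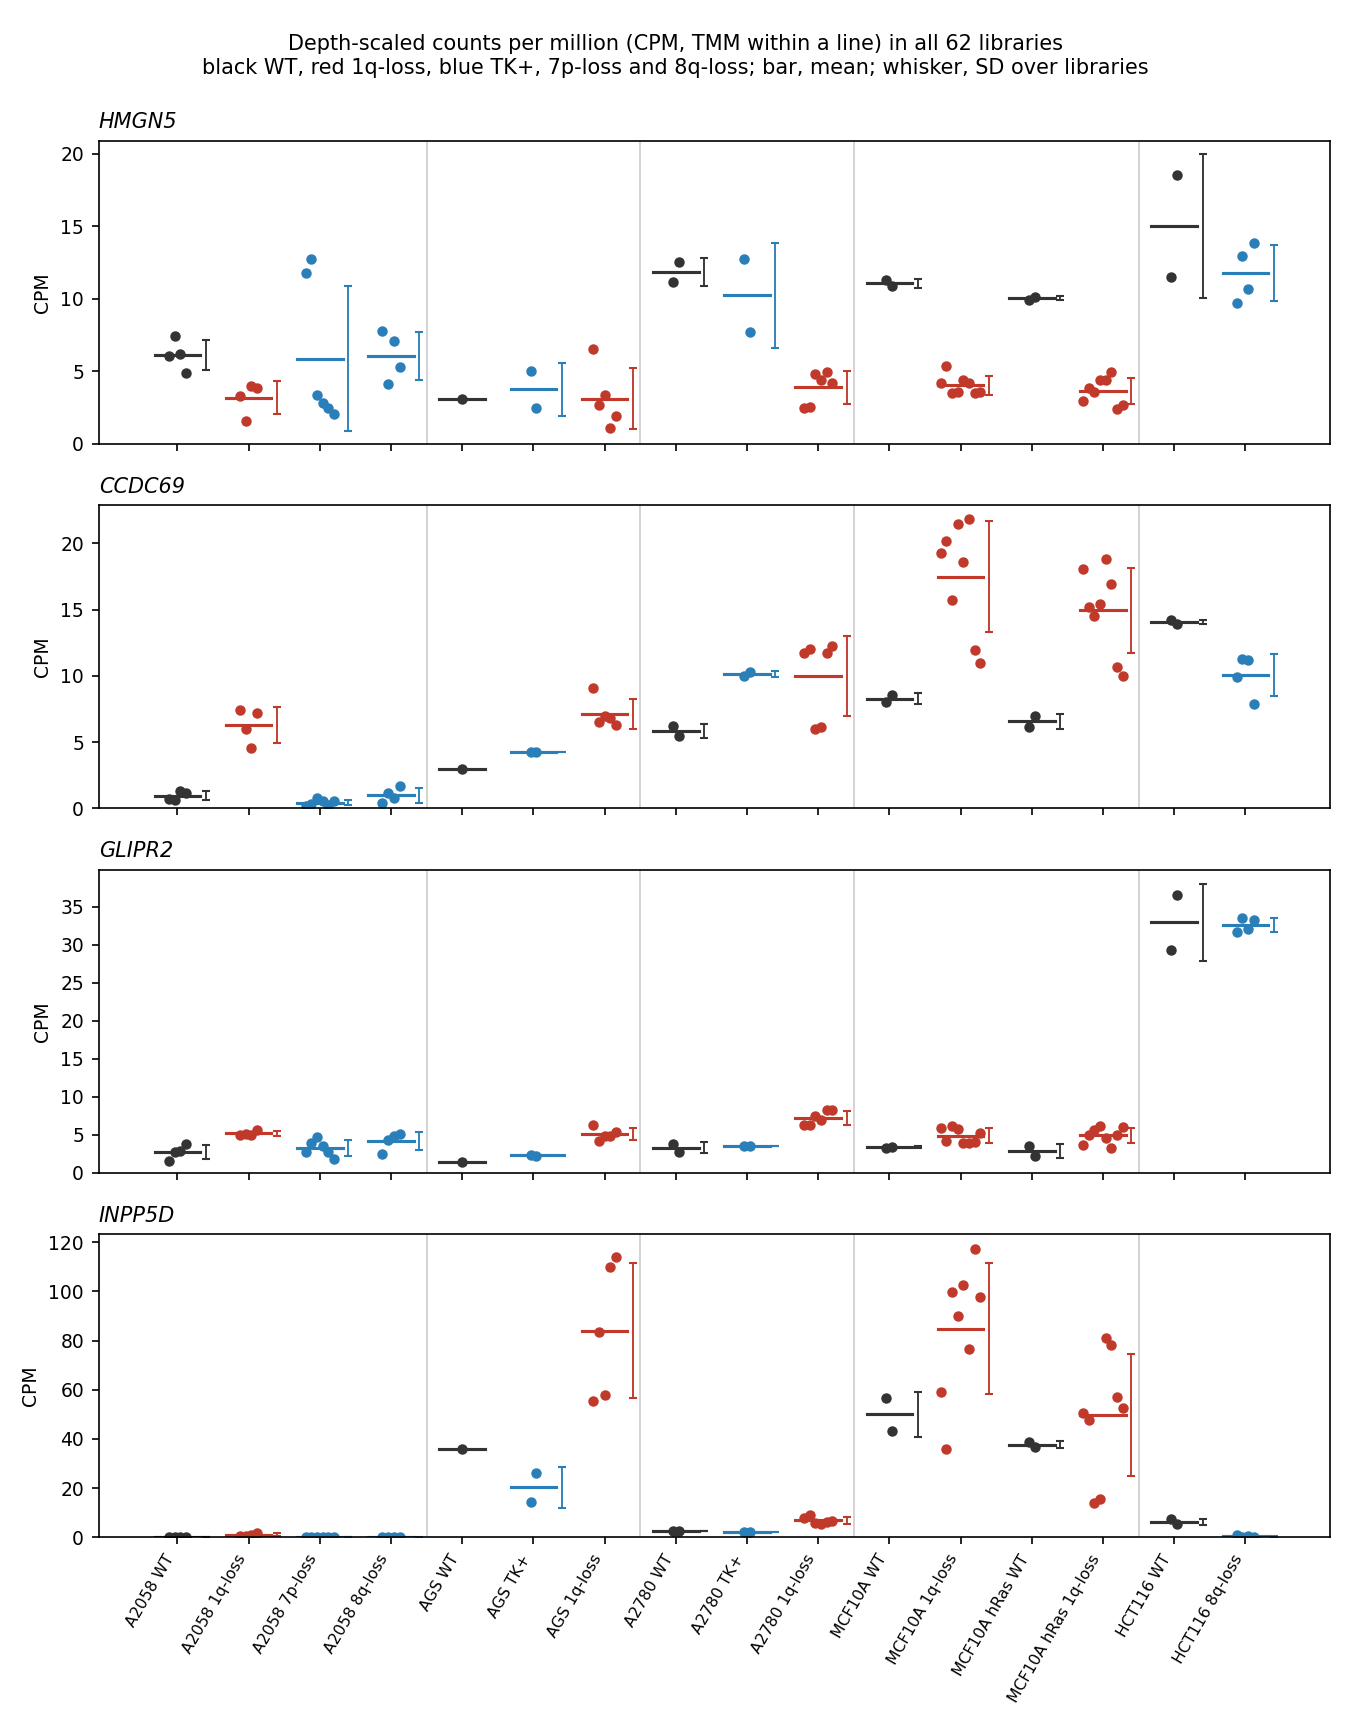
CPM (y axis) of HMGN5, CCDC69, GLIPR2 and INPP5D in all 62 libraries by group (x axis); points are libraries, bars means and whiskers the SD over libraries. HMGN5 sits between 2.43 and 5.40 CPM in all 16 MCF10A 1q-loss libraries against 9.96 to 11.3 CPM in their controls, and the A2058 7p-loss libraries span 2.04 to 12.7 CPM.

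INPP5D was higher in the 1q-loss clones of AGS and A2780 and detectable in those of A2058, and its values were below WT in HCT116 8q-loss clones, where it missed the threshold. In AGS the WT library held 35.9 CPM, the TK+ libraries 14.4 and 26.2 CPM, and the 1q-loss clones 1, 4, 6, 7 and 11 held 55.6, 57.9, 109.7, 114 and 83.3 CPM. Each 1q-loss clone of AGS lay above every control, with a log2 fold change of 1.73 ± 0.35, a call lost in 4 of 14 alternatives. In A2780 the controls held 2.16 to 2.56 CPM and the 1q-loss libraries 5.62 to 9.09 CPM (log2 fold change 1.54 ± 0.17). A2058 was near the limit of counting: 3 WT libraries had 0 counts and 1 had 5, the 7p-loss libraries had 0 to 2 and the 8q-loss libraries 0 to 6, while the 1q-loss clones had 11 and 10 (clone 1) and 24 and 47 counts (clone 2), or 0.525, 0.484, 1.12 and 1.77 CPM. A library with 0 counts allows up to 3 counts, which is 0.107 to 0.152 CPM in these libraries, counting error only, so a fold against WT is not given. INPP5D passed the count filter in A2058 1q loss only through the 1q-loss libraries, so nothing is read from its call there. With a mean CPM of at least 1 as the filter, INPP5D no longer met the recurrence rule. MCF10A clones were split. Clones 2, 3 and 4 held 76.5 to 117 CPM against 56.5 and 43.4 CPM in WT, whereas clone 1 held 59.1 and 35.9 CPM and overlapped WT. With hRas, clone 2 held 14.1 and 15.5 CPM, below the WT libraries at 38.8 and 36.6 CPM, and clones 1, 3 and 4 held 47.6 to 80.9 CPM, above them.

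In HCT116, where the label names loss of 8q and not of 1q, INPP5D stood at 7.25 and 5.54 CPM in WT (203 and 131 counts), at 0.774 and 0.236 CPM in clone 1 and at 0.427 and 0 CPM in clone 2 (0 to 20 counts). All 4 clone libraries lay below both WT libraries. The log2 fold change of -4.14 ± 0.85 did not pass the threshold in edgeR (adjusted p = 0.147), which called 0.14% of all genes there. It passed in DESeq2 (adjusted p = 0.000687), whose share of all genes called is not given here. Under the 15 alternatives the adjusted p ran from 6.28e-07 to 1, with 5 of them under the threshold. In A2058, INPP5D was below the count filter in the 7p-loss and 8q-loss comparisons and was not tested. The summed blood cell markers ran from 3.14 to 8.58 CPM in the AGS 1q-loss libraries against 4.07 to 5.45 CPM in the AGS controls, from 5.88 to 7.48 CPM in the A2780 1q-loss libraries against 5.67 to 8.07 CPM in theirs, and from 16.1 to 25.03 CPM in HCT116 8q-loss against 20.5 and 29.4 CPM in WT. The groups did not overlap in MCF10A, at 347 to 447 CPM in 1q-loss against 468 to 549.5 CPM in WT, nor in MCF10A hRas, at 192 to 399.7 CPM against 416 to 448 CPM. In A2058 the sums were 22.1 to 27.2 CPM in 1q-loss, 18.1 to 35.9 CPM in 7p-loss, 34.3 to 68.0 CPM in 8q-loss and 19.2 to 33.3 CPM in WT. Their part in the values of INPP5D and PSTPIP2 was not tested.

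PSTPIP2, the F-BAR adaptor, was higher in 1q-loss clones of A2058, AGS and A2780 and differed between A2058 clones that had lost 7p instead. In AGS it held 34.7 CPM in WT, 30.5 and 32.1 CPM in TK+ and 54.8 to 79.3 CPM in the 5 1q-loss clones (log2 fold change 1.13 ± 0.14). In A2780 the 1q-loss libraries held 6.89 to 9.44 CPM, WT 4.79 and 4.44 CPM and TK+ 5.38 and 7.33 CPM, so that 1 TK+ library lay within the 1q-loss range. The A2780 call was lost in 14 of 22 alternatives, with adjusted p from 0.00644 to 0.299 by edgeR or DESeq2, the highest against TK+ libraries alone. In A2058 the WT libraries held 1.77 to 3.38 CPM and the 1q-loss libraries 6.49, 5.08, 4.47 and 5.14 CPM. Among clones of the same line, 7p-loss clone 2 held 5.70 and 5.40 CPM and 8q-loss clone 2 held 4.48 and 5.003 CPM, within the range of the 1q-loss libraries. By contrast, 7p-loss clone 1 held 0.841 and 0.750 CPM, 7p-loss clone 3 held 1.74 and 1.42 CPM and 8q-loss clone 1 held 1.495 and 0.898 CPM, all below every WT library. The 7p-loss clones differed by up to 2.81 on the log2 scale (adjusted p = 0.00133, edgeR), and the 8q-loss clones by 1.98 (adjusted p = 0.103 in edgeR and 0.00555 in DESeq2). With the replicate number as a block the adjusted p of the 8q-loss difference was 3.55e-08 in edgeR, where same-numbered libraries of these 2 clones correlated at 0.706. That fit holds 4 libraries, and its p-value measures spread between libraries, not between clones. In MCF10A hRas, clone 2 held 16.5 and 18.8 CPM and clone 4 held 27.3 and 24.5 CPM, below the WT libraries at 36.7 and 35.8 CPM. Clone 1, at 45.02 and 43.9 CPM, and clone 3 lay above those WT libraries, and the group was called in neither direction.

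The surface proteins SEMA7A and TSPAN9 had their widest separation in A2058. SEMA7A stood at 15.98 to 37.3 CPM in A2058 WT and at 197, 242, 144 and 213 CPM in the 1q-loss libraries (log2 fold change 2.97 ± 0.24). TSPAN9 stood at 14.96 to 21.4 CPM in WT and at 96.7, 111, 148 and 155 CPM in the 1q-loss libraries (log2 fold change 2.86 ± 0.17). All 7p-loss and 8q-loss libraries lay below these levels, with 5.78 to 51.9 CPM for SEMA7A and 9.34 to 29.6 CPM for TSPAN9. The A2058 1q-loss libraries are also those with the low melanoma markers, and the part of that difference was not tested. In AGS, SEMA7A held 13.6 to 14.98 CPM in controls and 21.1 to 35.4 CPM in 1q-loss clones. TSPAN9 there held 16.4 to 19.96 CPM in controls and 26.7 to 36.6 CPM in 1q-loss clones. The AGS call was lost in 6 of 14 alternatives for SEMA7A and in 2 for TSPAN9, with adjusted p up to 0.136 and 0.0843 by edgeR. In A2780, SEMA7A was low throughout, at 0.459 to 0.904 CPM (10 to 20 counts) in controls and 1.27 to 2.40 CPM (28 to 54 counts) in 1q-loss clones, and TSPAN9 held 7.67 to 10.6 and 13.3 to 18.01 CPM. The A2780 call of SEMA7A was lost in 2 of 22 alternatives, with libraries of each clone summed (adjusted p = 0.0537, edgeR) and against WT alone (0.124). In MCF10A the 1q-loss libraries overlapped WT for both genes, with SEMA7A at 10.2 to 31.3 CPM against 13.8 and 16.2 CPM and TSPAN9 at 17.7 to 27.8 CPM against 15.5 and 18.5 CPM, and neither qualified (adjusted p = 0.598 and 0.519, edgeR). In MCF10A hRas the clones differed widely: SEMA7A was at 51.8 and 50.1 CPM in clone 4 and at 11.9 and 12.5 CPM in clone 3, against 10.5 and 11.2 CPM in WT, and TSPAN9 was at 42.1 and 44.5 CPM in clone 2 and at 18.8 to 22.4 CPM in the other clones, against 16.8 and 16.6 CPM in WT. Neither qualified there (adjusted p = 0.365 and 0.412, edgeR). TSPAN9 also distinguished the 7p-loss clones of A2058 (clone 1 at 27.3 and 29.6 CPM, clones 2 and 3 at 11.3 to 14.97 CPM), which differed by up to 1.25 on the log2 scale (adjusted p = 0.00323, edgeR).

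KBTBD8, the ubiquitin ligase adaptor, was higher in 3 lines and not in MCF10A. In A2780 the controls held 4.88 to 6.21 CPM and the 1q-loss libraries 7.27 to 11.2 CPM. In AGS the controls held 1.31 to 1.48 CPM (23 to 25 counts) and the 1q-loss clones 6.53, 6.56, 2.84, 3.17 and 5.59 CPM in clones 1, 4, 6, 7 and 11, all above the controls. In A2058 the WT libraries held 2.91 to 3.51 CPM and the 1q-loss libraries 4.66 to 6.87 CPM. The call of KBTBD8 was lost in 4 of 22 alternatives in A2780 and in 4 of 14 in AGS, with adjusted p up to 0.159 and 0.0943 by edgeR. In A2780 these were the summed libraries, TK+ alone as controls and the leaving out of either WT library. The 7p-loss clone 2, at 4.28 and 6.28 CPM, and the 8q-loss clone 1, at 4.90 and 4.49 CPM, also lay above every WT library, and 7p-loss clone 1, at 0.890 and 0.892 CPM, lay below. The 7p-loss clones differed by up to 2.57 on the log2 scale (adjusted p = 0.00404, edgeR). In MCF10A and MCF10A hRas the log2 fold changes were -0.23 ± 0.17 and -0.40 ± 0.30. Over all clones KBTBD8 was higher in 11 of 18 1q-loss clones and in 7 of 10 without 1q loss. The 8 tested genes within 2 Mb of KBTBD8 had a median log2 fold change of 0.42 in A2058 1q-loss, 5 of them called, the highest median near any called member. The part of these neighbours in the change of KBTBD8 was not tested.

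**Figure D3:**
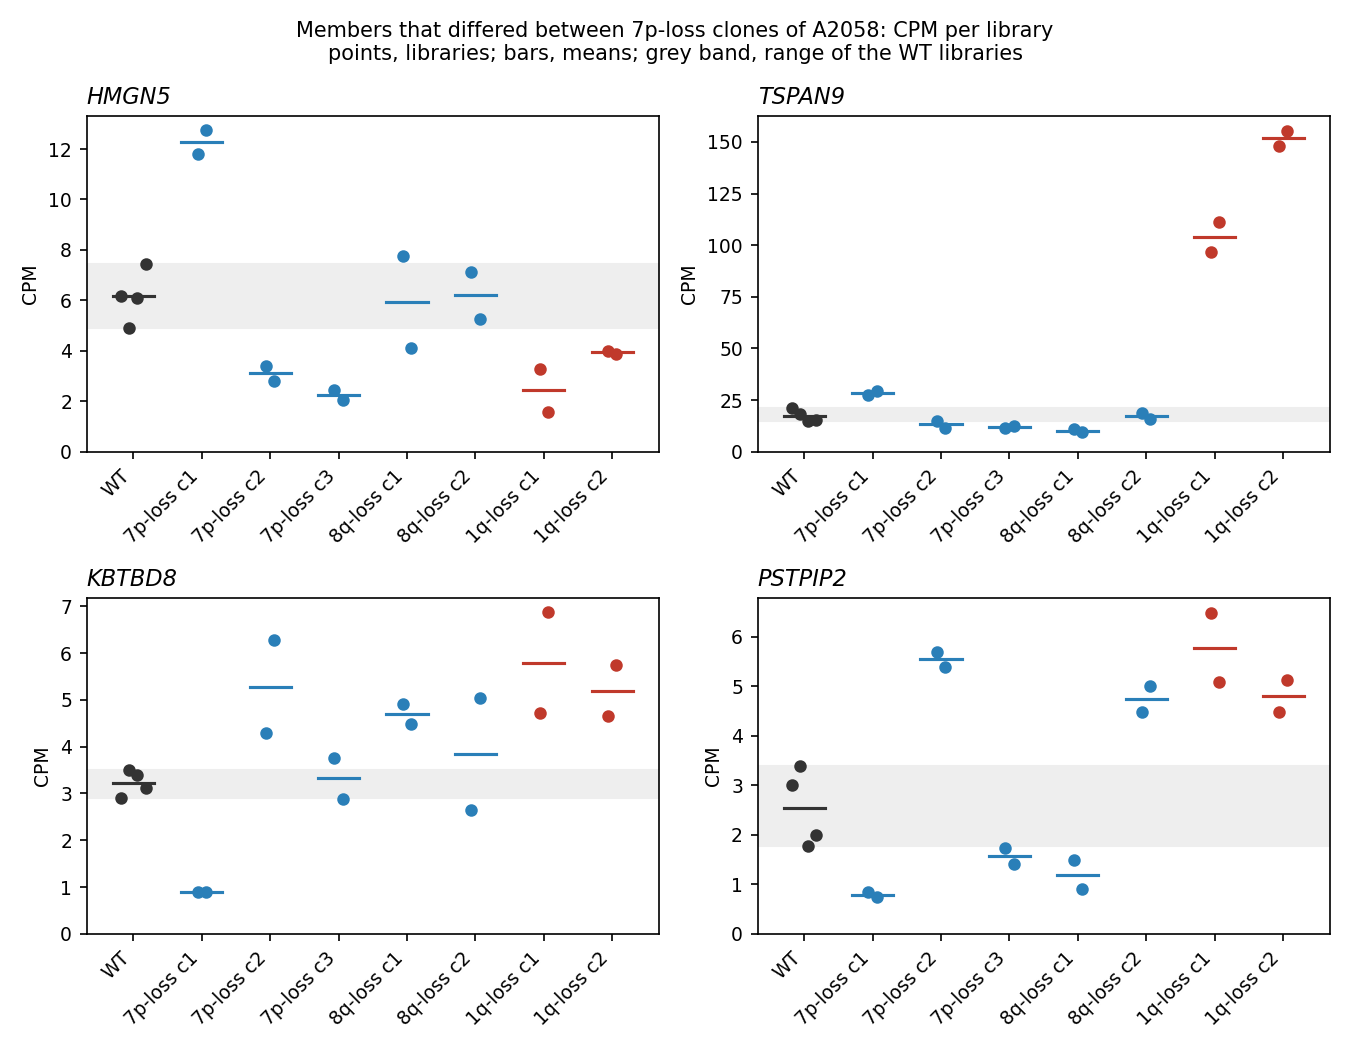
CPM (y axis) of HMGN5, TSPAN9, KBTBD8 and PSTPIP2 in each library of A2058 by WT and clone (x axis); points are libraries, bars means and the grey band the range of the 4 WT libraries. The 7p-loss clones fall on both sides of the band for HMGN5 and PSTPIP2, and 7p-loss clone 1 holds 0.890 and 0.892 CPM of KBTBD8 against 2.91 to 3.51 CPM in WT.

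PINK1, the mitochondrial kinase, was higher in all 18 1q-loss clones by the clone means, with shifts from 0.20 to 2.17 and a median of 0.69, and in 3 of the 10 clones or groups without 1q loss. PINK1 lies on the short arm of chromosome 1. It held 5.08 to 7.34 CPM in A2058 WT and 17.3, 14.4, 26.5 and 30.3 CPM in the A2058 1q-loss libraries, against 3.72 to 10.3 CPM in 7p-loss and 5.61 to 7.97 CPM in 8q-loss. In AGS the 1q-loss clones held 23.9 to 33.3 CPM and the controls 14.7 to 20.5 CPM. In A2780 the 1q-loss libraries held 7.10 to 12.8 CPM and the controls 6.60 to 7.86 CPM, which overlapped in clone 5. The A2780 call of PINK1 was lost in 15 of 22 alternatives and the AGS call in 7 of 14. In MCF10A and MCF10A hRas every 1q-loss library was at or above 40.3 CPM, with WT at 30.2 and 40.8 CPM and at 29.1 and 28.9 CPM. PINK1 qualified in neither set by edgeR (adjusted p = 0.289 and 0.154), and DESeq2 called it in MCF10A hRas (adjusted p = 0.0052). HCT116 8q-loss libraries held 15.8 to 31.3 CPM and WT 36.4 and 29.8 CPM, which overlap, with a log2 fold change of -0.56 ± 0.33 that did not pass the test (adjusted p = 1, edgeR). PINK1-AS, which overlaps it, had log2 fold changes of 0.86 in A2058, -0.32 in AGS and 0.41 in A2780 1q-loss, of which only that in A2058 was called, and reads shared by the 2 genes cannot be told apart.

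ACO1, the iron-regulatory aconitase, was higher in the 1q-loss clones of A2058, AGS and A2780. In A2058 it held 27.1 to 36.9 CPM in WT and 82.5 to 113 CPM in 1q-loss libraries. The other A2058 clones held 41.1 to 51.8 CPM (8q-loss) and 32.3 to 49.2 CPM (7p-loss). All 4 8q-loss libraries lay above all 4 WT libraries, and ACO1 was the only member called there, with a log2 fold change of 0.56 ± 0.12 (adjusted p = 0.0415, edgeR). This call was lost in 9 of 17 alternatives, among them the leaving out of WT replicate 1, 2 or 4, clone 1 replicate 1 or 2, or clone 2 replicate 1, with adjusted p between 0.0011 and 0.163 over all 17. The change in 8q-loss libraries was smaller than that in 1q-loss libraries of the same line, at 1.64 ± 0.13, with the same WT libraries in both, and the difference was not tested. In AGS the single WT library held 75.3 CPM, close to the lowest 1q-loss clone at 78.0 CPM, and the TK+ libraries held 54.2 and 58.3 CPM. The AGS call was lost in 10 of 14 alternatives. In A2780 the controls held 16.6 to 22.1 CPM and the 1q-loss libraries 28.9 to 39.8 CPM. In MCF10A the 1q-loss libraries, at 57.04 to 78.6 CPM, surrounded the WT libraries at 63.6 and 68.0 CPM.

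GLIPR2, the autophagy-restraining membrane protein, was higher in 1q-loss clones of A2058, AGS and A2780. Its mean was higher in all 18 1q-loss clones, with shifts from 0.21 to 1.61 and a median of 0.99. In A2058 the WT libraries held 1.52 to 3.77 CPM and the 1q-loss libraries 4.99 to 5.66 CPM. AGS controls held 1.47 to 2.32 CPM and 1q-loss clones 4.26 to 6.29 CPM (a call lost in 4 of 14 alternatives), and A2780 controls held 2.81 to 3.80 and 1q-loss libraries 6.23 to 8.30 CPM. In MCF10A the WT libraries held 3.31 and 3.44 CPM and the 1q-loss libraries 3.88 to 6.12 CPM, none overlapping, with a log2 fold change of 0.53 ± 0.24 that did not qualify. In MCF10A hRas the WT libraries held 3.50 and 2.27 CPM and the 1q-loss libraries 3.31 to 6.11 CPM, which overlap, and the log2 fold change of 0.78 ± 0.29 did not qualify either. Of the clones without 1q loss, 7 of 10 had a higher mean than their controls, among them 8q-loss clone 2 of A2058 at 4.82 and 5.10 CPM. HCT116 had the highest WT level, and its 8q-loss libraries, at 31.7 to 33.6 CPM, lay within the WT range of 29.3 to 36.6 CPM.

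CCDC69, the spindle protein, was higher in 1q-loss clones of A2058, AGS and MCF10A, and in A2780 it was higher in TK+ cells that kept the gain. In MCF10A the WT libraries held 8.00 and 8.59 CPM and the 1q-loss libraries 11 to 21.8 CPM (log2 fold change 1.08 ± 0.25). This call was lost in 13 of 21 alternatives, with adjusted p by edgeR of 0.0505 with the replicate number as a block and of 0.509 and 0.356 without WT replicate 1 or 2. In MCF10A hRas they held 6.18 and 6.95 CPM and 9.97 to 18.8 CPM (1.19 ± 0.25, adjusted p = 0.0897 by edgeR, which missed the threshold). It passed by DESeq2 (adjusted p = 0.000601) and, by edgeR, without clone 4 (adjusted p = 0.0427). In A2058 the WT libraries held 0.606 to 1.34 CPM (14 to 29 counts) and the 1q-loss libraries 4.52 to 7.44 CPM, whereas the 7p-loss libraries held 0.198 to 0.751 CPM (4 to 17 counts). In AGS the WT library held 2.99 CPM, both TK+ libraries 4.26 CPM and the 1q-loss clones 6.26 to 9.07 CPM, a call lost in 8 of 14 alternatives. In A2780 the WT libraries held 6.19 and 5.47 CPM, the TK+ libraries 9.96 and 10.3 CPM, 1q-loss clones 2 and 6 held 11.7 to 12.2 CPM and clone 5 held 5.99 and 6.17 CPM. The TK+ libraries were higher than WT by 0.79 ± 0.16 (adjusted p = 0.00523, edgeR), a call kept in all 9 alternatives with adjusted p from 4.28e-05 to 0.0355. Since these libraries may come from 1 clone, the test compares them and not independent TK+ clones. Against TK+ alone the 1q-loss libraries of A2780 differed by -0.02, and against WT alone by 0.77. GM2A, on the opposite strand, differed by -0.03 between A2780 TK+ and WT and by -1.11 in A2058 1q-loss, where CCDC69 was higher by 2.72. In AGS 1q-loss GM2A differed by 1.08 (adjusted p = 0.0562, edgeR), the same direction as CCDC69 at 0.90.

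**Figure D4:**
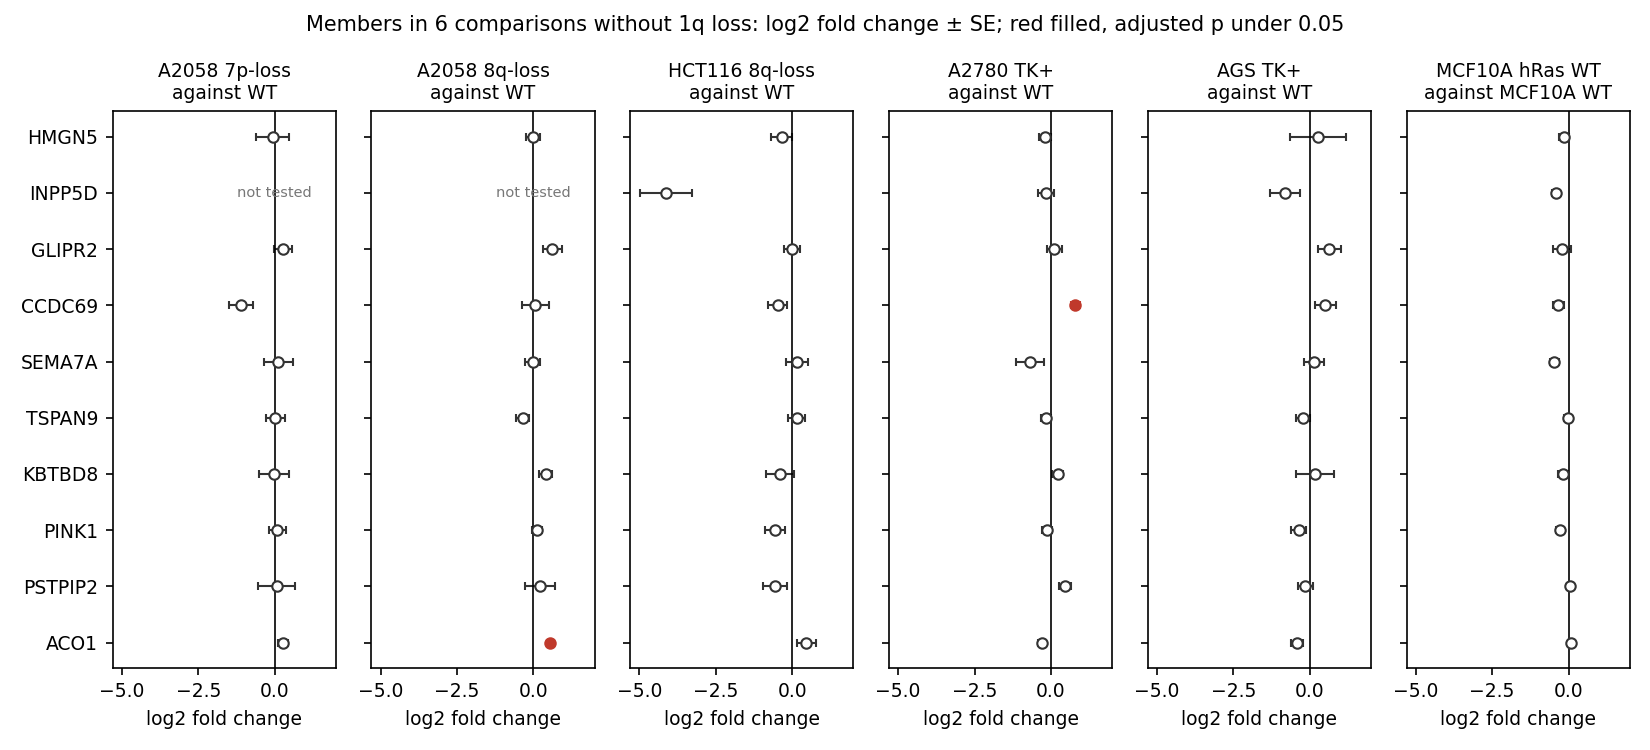
Log2 fold change ± SE (x axis, edgeR) of the 10 members (y axis) in 6 comparisons without 1q loss; red filled points passed an adjusted p of 0.05. Only CCDC69 in A2780 TK+ and ACO1 in A2058 8q-loss passed, and INPP5D in HCT116 8q-loss has the log2 fold change farthest from 0, at -4.14.

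These comparisons without 1q loss were not used to choose the members, but libraries were shared: the WT libraries of A2058, AGS, A2780, MCF10A and MCF10A hRas and the TK+ libraries were all controls for 1q loss. Only the HCT116 comparison shares none. In A2058, 7p loss called 0 of 9 tested members against 0.908% of all genes, with 1 at an unadjusted p under 0.05 (CCDC69, -1.10 ± 0.39, adjusted p = 0.261) and 0 by DESeq2. Loss of 8q called 1 of 9 (ACO1, 0.56) against 2.03% of genes, with 1 at an unadjusted p under 0.05 and 1 by DESeq2, both ACO1. In HCT116, 8q loss called 0 of 10 against 0.14% of genes, with 1 at an unadjusted p under 0.05 and 1 by DESeq2, in both cases INPP5D. All 8q-loss libraries there lay below both WT libraries for INPP5D, CCDC69 (-0.48), KBTBD8 (-0.40) and PSTPIP2 (-0.55), and above for 0 members. Of all genes, 8.29% lay below and 5.95% above. In A2780, TK+ cells against WT called 1 of 10 (CCDC69) against 11.2% of genes, and DESeq2 called the same 1. At an unadjusted p under 0.05 there were 3, with PSTPIP2 (0.46 ± 0.21, adjusted p = 0.213, edgeR) and ACO1 (-0.30 ± 0.11, adjusted p = 0.13), the latter opposite in sign to its 1q-loss changes. In AGS, TK+ against the single WT library called 0 of 10 against 0% of genes (0 of 16646), with 0 members at an unadjusted p under 0.05 and 0 by DESeq2. In that fit the single WT library is assumed to vary like the other groups. In MCF10A, hRas WT against WT called 0 of 10 against 1.62% of genes, with 2 at an unadjusted p under 0.05, INPP5D (-0.41 ± 0.12, adjusted p = 0.137) and SEMA7A (-0.47 ± 0.15, adjusted p = 0.184), and 0 by DESeq2. Of all genes tested, 13% were at an unadjusted p under 0.05 in 7p loss and 13% in A2058 8q loss. The share was 5.45% in HCT116, 21.6% in A2780 TK+, 1.6% in AGS TK+ and 14.2% in hRas WT. Shares of all genes called by DESeq2 are not given here, so nothing is read from the DESeq2 counts. The median log2 fold change of the tested members was 0.06 in 7p loss, 0.12 in 8q loss of A2058, -0.37 in HCT116, -0.14 in A2780 TK+, -0.00393 in AGS TK+ and -0.21 in hRas WT, with medians over all tested genes between -0.01 and 0.02.

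For comparison, the rule's own comparisons called 10 of 10 members in A2058 (49.6% of genes called), 9 of 10 in AGS (7.55%), 9 of 10 in A2780 (11.8%), 2 of 10 in MCF10A (2.04%) and 1 of 10 in MCF10A hRas (0.214%), counts that the choice of members sets. In A2780 the 2 TK+ libraries differed from WT at 1669 genes. The 1q-loss libraries differed from all controls, TK+ among them, at 1780 genes and from WT alone at 1302. These fits hold different numbers of libraries, so the counts are not compared. The summed ovarian markers stood at 171 and 180 CPM in WT, 5.99 and 8.21 CPM in TK+ and 7.28 to 84.8 CPM in 1q-loss libraries. With TK+ libraries alone as controls, A2780 1q loss called HMGN5, INPP5D, GLIPR2, SEMA7A, TSPAN9 and ACO1 against 4.22% of genes, and AGS 1q loss called TSPAN9 and PSTPIP2 against 1.07% of genes. Against WT alone, A2780 1q loss called 7 of 10 against 8.21% of genes. These libraries are among those that chose the members, so the choice sets these counts too and nothing is read from them against the shares.

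Clones of 1 line that had lost the same arm, other than 1q, were then compared with each other. Among the 3 7p-loss clones of A2058, 4 of 9 tested members differed (HMGN5, TSPAN9, KBTBD8 and PSTPIP2) against 29.4% of all genes tested. These 4 were called in all 11 alternatives. With the replicate number as a block, an alternative fit, 6 were called by edgeR, SEMA7A (adjusted p = 5.86e-05) and PINK1 (0.00964) being added. The share of all genes called with the block is not given here, so this count is not read against 29.4%. The 2 8q-loss clones of A2058 differed at 0 of 9 members against 0.592% of genes. At an unadjusted p under 0.05 there were 2, against 11.3% of genes. DESeq2, whose share of all genes is not given here, called 1 (PSTPIP2). With the replicate number as a block PSTPIP2 and TSPAN9 were called (adjusted p = 3.55e-08 and 3.33e-05, edgeR). That fit holds 4 libraries of 2 clones and leaves little to estimate spread from. Its p-values measure spread between libraries, not between clones, and its share of all genes called is not given here. The 2 HCT116 clones differed at 0 of 10 against 18.5% of genes. At an unadjusted p under 0.05 there were 2, against 33.4% of genes. DESeq2, whose share of all genes is not given here, called 1 (PINK1, 15.8 and 18.7 CPM in clone 2 and 31.3 and 24.2 CPM in clone 1). The median range between clones was 1.27 for the members and 0.47 for all genes in 7p loss, 0.29 and 0.20 in A2058 8q loss, and 0.30 and 0.54 in HCT116.

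Counted by clone, each A2058 1q-loss clone had all 10 members in the chosen direction, and all libraries of both clones lay past the WT range for all 10. Over the 4 libraries of both clones, 47.5% of all genes tested lay past the WT range in 1 direction. The median shift in that direction was 1.41 in clone 1 and 2.00 in clone 2. In the 7p-loss clones 4, 7 and 4 members lay in that direction, with median shifts of -0.73, 0.50 and -0.18, and in the 8q-loss clones 7 and 6, with 0.15 and 0.11. AGS 1q-loss clones had 9 or 10 members in the direction and medians of 0.75 to 1.12, and the 2 AGS TK+ clones had 4 and 5 with medians of -0.23 and 0.01. A2780 1q-loss clones had 9 or 10 with medians of 0.66 to 0.91, and the TK+ group 5 with a median of -0.0003. The 8 clones of MCF10A and MCF10A hRas had 7 to 9 with medians of 0.29 to 0.74. HCT116 8q-loss clones had 4 each, with medians of -0.13 and -0.12. The direction in the 1q-loss clones was fixed by the choice of members. The other clones of A2058, AGS and A2780 were set against, or were among, the controls that the choice used, and only those of HCT116 share no library with it.

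Neighbouring genes were examined next. For the 33 pairs of a member and a comparison in which the member was called, the median log2 fold change of tested genes within 2 Mb ran from -0.29 to 0.42 and that of the chromosome arm from -0.06 to 0.10. In 4 of the 33 pairs the neighbours' median lay past 0.2 in the direction of the member, and these were HMGN5 in A2058 and A2780, KBTBD8 in A2058 and CCDC69 in AGS, where AGS clones 1 and 4 stood at 0.45 and 0.60 over 35 genes and TK+ clone 1 at 0.43.

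Per kilobase of exon, the WT order of the members is given within each line. Exon lengths are those of the files, GRCh37 for A2780 and GRCh38 for the others, and they differ (ACO1 has 3601 and 7555 bases), so A2780 values are not comparable with those of other lines and their order depends on the build. SEMA7A and ACO1 had the highest means in A2058, at 6.65 and 4.21 CPM per kb, with overlapping WT libraries, and INPP5D was last at 0.00665. GLIPR2 led in HCT116 at 10.8 CPM per kb. The lowest means there were those of KBTBD8 and INPP5D, at 0.698 and 0.737, and their WT libraries overlapped. In the single AGS WT library ACO1 stood at 9.97 and PSTPIP2 at 8.42 CPM per kb. The highest means were those of ACO1 and HMGN5 in A2780, at 5.99 and 5.57 CPM per kb, and of ACO1 and PSTPIP2 in MCF10A, at 8.71 and 8.50 CPM per kb, and the WT libraries of each pair overlapped. HMGN5 and TSPAN9 in A2058, at 2.55 and 2.54 CPM per kb, did not differ beyond their spread over 4 libraries. GLIPR2 was last in MCF10A at 1.11, KBTBD8 in AGS at 0.277 and SEMA7A in A2780 at 0.224 CPM per kb.

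Families and pathways around the members were read from lists of related genes in the 1q-loss comparisons. Of 9 other HMG chromatin protein genes tested, 2 rose and 4 fell in A2058 1q loss (66.7% called, against 49.6% of all genes), and 0 were called in AGS, A2780, MCF10A and MCF10A hRas. HMGN1, a relative of HMGN5, fell by 0.24 ± 0.07 in A2058 (adjusted p = 0.0167, edgeR), and HMGA2, an architectural chromatin protein, rose by 0.41 ± 0.09 (adjusted p = 0.00318). Of 13 other phosphoinositide phosphatases, 2 rose and 6 fell in A2058 (61.5% against 49.6% of all genes), 0 were called in AGS and 1 rose in A2780 (7.69% against 11.8%). INPP5J rose by 2.32 ± 0.36 and INPP4B, INPP5F and INPP5E fell by 1.78, 1.82 and 0.24 on the log2 scale in A2058. Of 17 tested mitophagy genes, 4 rose and 5 fell in A2058 (52.9%), 0 were called in AGS, and 4 rose in A2780 (23.5% against 11.8% of all genes). BNIP3L, a receptor for mitophagy on the outer membrane, rose by 0.81 ± 0.19 in A2058 and 0.86 ± 0.12 in A2780, and NBR1, an autophagy receptor, by 0.79 ± 0.08 and 0.27 ± 0.07. Of the iron regulation genes, 5 of 11 rose and 1 fell in A2058 (54.5%), with SLC11A2, an iron importer, lower by -0.92 ± 0.09, and 1 of 12 rose in A2780 (8.33%), HMOX1, which degrades heme, by 2.03 ± 0.25.

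Around SEMA7A, 8 of 18 tested semaphorins and receptors rose and 6 fell in A2058 1q loss (77.8% called against 49.6% of all genes), 1 of 15 fell in AGS (6.67% against 7.55%), and 5 of 18 rose and 1 fell in A2780 (33.3% against 11.8%). The receptor genes moved unequally: ITGB1, integrin beta-1, rose by 0.93 ± 0.07 in A2058 and 0.57 ± 0.11 in A2780 and fell by 0.49 ± 0.12 in AGS, ITGA1 rose by 2.55 ± 0.19 in A2058 and fell by 0.63 in A2780, and PLXNC1, plexin C1, fell by 3.02 ± 0.28 in A2058. Among tetraspanins, 6 of 19 rose and 7 fell in A2058 (68.4%), 0 of 20 were called in AGS, and 3 of 20 rose and 2 fell in A2780 (25%), against the same shares of all genes. CD9 fell by 0.85 ± 0.15 in A2058 and rose by 1.88 ± 0.45 in A2780 and 0.42 ± 0.10 in MCF10A. Of the CUL3 adaptors and KBTBD8 substrates, 1 of 9 rose and 2 fell in A2058 (33.3% against 49.6%) and 0 were called in AGS and A2780. Of 17 F-BAR proteins and PTPN12, 7 rose and 4 fell in A2058 (64.7% against 49.6%), 1 rose and 2 fell in AGS (17.6% against 7.55%) and 2 fell in A2780 (11.8%, the share of all genes), with FNBP1 lower by -0.36 ± 0.09 and -0.24 ± 0.06. In the comparisons without 1q loss, the same lists had at most 1 gene called in each direction in A2058 7p loss, A2058 8q loss, HCT116 and hRas WT, 0 in AGS TK+, and in A2780 TK+ up to 7, the semaphorins and receptors with 2 higher and 5 lower (38.9% against 11.2% of all genes).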

How the data were processed

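Poly-A RNA of 62 libraries in 16 groups of 5 cell lines was sequenced, with 15042068 to 30984036 counts per library. The authors deposited raw counts per gene, 1 table per library. Per the submitters' processing notes, HISAT2 2.0.5, featureCounts 1.5.0-p3 and the hg38 build were used. The gene lists of the A2780 tables are those of GRCh37 and hold 48162 genes, against 58735 in the others. The strand setting of counting is not given in the sources used here. Raw reads of A2780 were lost, per the submitters.

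From these deposited counts, each comparison was fitted over all genes with edgeR 4.0.16 in R 4.3.3 (filterByExpr with a minimum count of 10 and total of 15, TMM, glmQLFit, glmQLFTest) with Benjamini-Hochberg adjustment over all genes tested and a threshold of 0.05 for a call. The SE is the log2 fold change divided by the root of F. DESeq2 1.42.0 was an alternative. Arms were split at approximate centromere positions of each build, entered by hand. CPM were scaled by TMM within a line, and log2 CPM used a prior count of 2. Scripts were tested on simulated data. AGS and A2780 1q-loss clones were compared with WT and TK+ libraries together.

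The members and gene lists were chosen with earlier results of these data known. Named genes are the members and, of each list, up to 4 called in the most 1q-loss comparisons. Libraries with the same replicate number deviated together in MCF10A 1q-loss (correlations 0.201 to 0.504 over 4 pairs) and between 7p-loss clones (0.546 to 0.695 over 3 pairs). Between the 8q-loss clones of A2058 the correlation was 0.706 over 1 pair. The main fits held no block for the replicate number, which entered only as an alternative. No pair of libraries agreed within sampling noise (126 pairs, lowest chi-square per degree of freedom 3.63). Floors of 3 counts cover counting error only.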

Additional observations from a re-analysis of the deposited data

Results flagged for a closer look

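Of 90 pairs of a member and a group of 4 to 10 libraries, 4 held a library far from the others, and chance marks about 1 pair in 20. INPP5D stood at 0.2695 CPM in A2058 8q-loss clone 1 replicate 2 and at 0 in the other 3 libraries of that group. It stood at 0.2309 CPM in A2058 WT replicate 3 and at 0 in the other 3 WT libraries. CCDC69 in AGS 1q-loss clone 1 stood at 9.068 CPM, with the next clone at 6.958 CPM. SEMA7A in AGS 1q-loss clone 11, the clone made with ReDACT-CO, stood at 35.39 CPM, with the next clone at 24.73 CPM.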

How the results depend on the processing

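No log2 fold change of a member reversed its direction among called values in any alternative run. In 7p loss the count of members called was 1 without clone 1, the clone with the highest HMGN5, and 0 without clone 2 or clone 3. In 8q loss of A2058 it was 0 with the replicate block, with libraries of each clone summed and without clone 1, 2 without clone 2 (TSPAN9 added), and 0 to 1 when 1 library was left out. In HCT116 it was 1 with DESeq2, no filter, summed libraries or without clone 2, and 0 to 1 when 1 library was left out. In A2780 TK+ it was 1 to 3 when 1 library was left out, 3 without TK+ replicate 1 and 2 without TK+ replicate 2. In hRas WT it was 1 with no filter and 1 with the replicate block (INPP5D, adjusted p = 0.0067, edgeR). Between 8q-loss clones it was 1 with DESeq2, 1 with no filter, 2 with the replicate block and 0 to 1 when 1 library was left out. Between HCT116 clones it was 1 with DESeq2 and 0 to 3 when 1 library was left out, and 3 with the numbers of clone 2 crossed, an alternative added after seeing the data. Of the 10 members, 6 met the rule with the replicate block, 5 with summed libraries, 2 with TK+ libraries alone as controls in AGS and A2780, and 2 to 10 when 1 library was left out. DESeq2 kept all 10 but let 154 genes qualify in place of 27. Shares of all genes called in a comparison are not given for most of these alternatives, so these counts of members are not read against them. The causes were not tested. Same-numbered libraries correlated at 0.198 to 0.264 in A2058 1q loss, -0.216 to 0.619 in A2780 1q loss, -0.155 to 0.007 in hRas 1q loss, -0.131 to -0.056 in 7p loss, -0.074 to 0.014 in 8q loss, -0.346 to 0.612 in HCT116, 0.188 in A2780 TK+, 0.074 in hRas WT, 0.706 between 8q-loss clones and -0.371 between HCT116 clones. AGS TK+ without its only WT library could not be fitted and was not run. Low counts limit INPP5D in A2058, CCDC69 in A2058 7p loss and SEMA7A in A2780.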
